A study of Mus musculus and Acomys cahirinus with 16 samples.

Results

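Transcripts of 10 genes for S100 calcium-binding proteins were followed in skin, untreated or treated with DMBA/TPA, of Mus musculus, the laboratory mouse, and Acomys cahirinus, a spiny mouse. The genes S100a8, S100a9, S100a3, S100a4, S100a6, S100a10, S100a11, S100a14, S100a16 and S100b were taken by symbol from a table of 56980 genes in mouse and of 19818 genes in spiny mouse, and all 10 were found in each. Polyadenylated RNA of 16 skin samples was sequenced, with 4 samples in each of the 4 groups: untreated mouse, DMBA/TPA-treated mouse, untreated spiny mouse and DMBA/TPA-treated spiny mouse. DMBA is a carcinogen that damages DNA, whereas the phorbol ester TPA drives the growth of mutated keratinocytes. The labels give tissue and treatment, and the strain, age, dose, duration, body site and whether a treated sample held a tumour are not given in the sources used here. The series' design text speaks of irradiated fibroblasts, whereas its title and every sample label describe skin, so the labels were followed. Nothing states that the replicates of a group were separate animals, so p-values measure the spread between these samples, which may be technical.

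S100 proteins are small calcium sensors with paired EF-hand loops, which mostly act as dimers that bind partner proteins once calcium is bound. In skin, S100A8 and S100A9 join into calprotectin, a metal-binding protein that neutrophils carry in bulk and that keratinocytes make in wounded or inflamed epidermis, while S100A10 joins annexin A2 at membranes and S100A3 belongs to the hair cuticle. Most of the genes lie side by side in a cluster next to genes for the cornified envelope of the epidermis.

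Among mouse genes S100a16, S100a14, S100a3, S100a4, S100a6, S100a8 and S100a9 lay on chromosome 3 of GRCm39 between 90434163, the start of S100a14, and 90603028, the end of S100a9, with S100a11 and S100a10 further along from 93427795 to 93471950. S100b lay apart on chromosome 10, from 76089687 to 76096993. In the AcoCah2 assembly of the spiny mouse all 10 genes were on scaffold_7, where S100a14 started at 126443211, S100a10 ended at 128025257, and S100b stood apart from 10115976 to 10124214.

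The 250 bases upstream of the start sites of S100a8, S100a9 and S100a11 are shown because these 3 genes rose in both species and their windows held a searched motif. S100a6 and S100a16 also rose in both, and their windows held none of the motifs. All windows are mouse sequence, and no spiny mouse window was searched. The sequences come from the promoter table of RefSeq (GRCm38.p6), each placed by an exact match on GRCm39, and are written 5′ to 3′ along the gene. They cover chr3:90576128-90576377 on the plus strand for S100a8, chr3:90603029-90603278 on the minus strand for S100a9 and chr3:93427553-93427802 on the plus strand for S100a11. Capitals mark matches to 3 motifs. The core promoter motif TATAAA was searched on the gene strand. The C/EBP motif TTGCNNAA and the TPA-responsive element TGACTCA, which AP-1 binds, were searched on both strands.
S100a8: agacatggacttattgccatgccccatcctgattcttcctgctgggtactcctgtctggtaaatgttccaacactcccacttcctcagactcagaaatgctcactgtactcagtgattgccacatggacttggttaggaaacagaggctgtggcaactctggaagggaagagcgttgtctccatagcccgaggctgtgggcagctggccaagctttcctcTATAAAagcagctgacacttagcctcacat
S100a9: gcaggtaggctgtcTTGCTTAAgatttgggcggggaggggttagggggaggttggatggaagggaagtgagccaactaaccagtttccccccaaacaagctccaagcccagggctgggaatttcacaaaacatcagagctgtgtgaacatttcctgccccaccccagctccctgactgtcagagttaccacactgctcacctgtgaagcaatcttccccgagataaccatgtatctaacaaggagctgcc
S100a11: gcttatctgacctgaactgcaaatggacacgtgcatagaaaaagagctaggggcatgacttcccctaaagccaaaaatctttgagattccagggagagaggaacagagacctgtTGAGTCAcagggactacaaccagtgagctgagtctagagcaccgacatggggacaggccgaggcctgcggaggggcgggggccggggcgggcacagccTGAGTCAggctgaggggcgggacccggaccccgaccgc

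S100a8 held TATAAA from -30 to -25, S100a9 held TTGCTTAA from -236 to -229, and S100a11 held TGAGTCA, the reverse complement of TGACTCA, from -136 to -130 and again from -38 to -32, all counted back from the RefSeq start site. None of the marked motifs overlapped. Entries were found for 8 of the 10 genes, with 12 windows, and S100a10 and S100a14 had no entry. Among 32536 distinct windows of the same length, TGACTCA was in 4.454%, TTGCNNAA in 9.571% and TATAAA in 7.549%. S100a11 alone of the 8 matched genes held TGACTCA, S100a9 alone held TTGCNNAA, and TATAAA was in S100a3, S100a4 and S100a8. By window, TGACTCA was in 1 of the 12, TTGCNNAA in 1 and TATAAA in 3. S100a3 has several start sites, and only the window of start site 3 held TATAAA. A match is a run of letters and was not tested as a binding site.

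A mouse library held 19608787 to 30198281 counts, and a spiny mouse library 21143918 to 30561256. Levels are CPM, counts scaled to library size with TMM factors, and a floor of 3 counts, which covers counting error only, was 0.109 to 0.158 CPM in mouse and 0.102 to 0.137 CPM in spiny mouse. The 2 species were counted on separate gene models and scaled separately, so levels set side by side across species were not tested. Untreated mouse replicate 2 stood apart, with the lowest level of that group in 8 of the 10 S100 genes and the highest level of S100a3. Its column also carries a suffix with no stated meaning. The genes together made up 0.101% ± 0.0219 (SD, n = 4) of the counts in untreated and 0.329% ± 0.0438 in treated mouse skin, against 0.240% ± 0.0929 and 0.449% ± 0.00807 in spiny mouse skin. In bulk tissue fewer cells of a type and less RNA per cell cannot be told apart.

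All 10 genes passed the filter on low counts in each species. With edgeR's quasi-likelihood test at an adjusted p under 0.05, S100a8, S100a9, S100a3, S100a6, S100a11, S100a14 and S100a16 were called higher in treated mouse skin, which is 7 of the 10 members, where 25.9% of all 19740 tested genes were called higher. S100a4 was the 1 member called lower, beside 35.3% of all genes, and S100a10 and S100b were not called. The treated mouse samples lay above every untreated one for the same 7 genes (26.6% of all genes did so) and below for 0 (32.0% of all genes). In spiny mouse 6 members were called higher, S100a8, S100a9, S100a6, S100a10, S100a11 and S100a16, beside 28.2% of 14833 tested genes, and S100b alone was called lower, beside 26.9%. Treated and untreated spiny mouse samples were apart for the same genes, with 6 members above (26.7% of all genes) and 1 below (24.1%). The median log2 fold change of the members was 0.91 in mouse and 0.47 in spiny mouse, beside -0.15 and -0.01 over all genes tested.

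**Figure D1:**
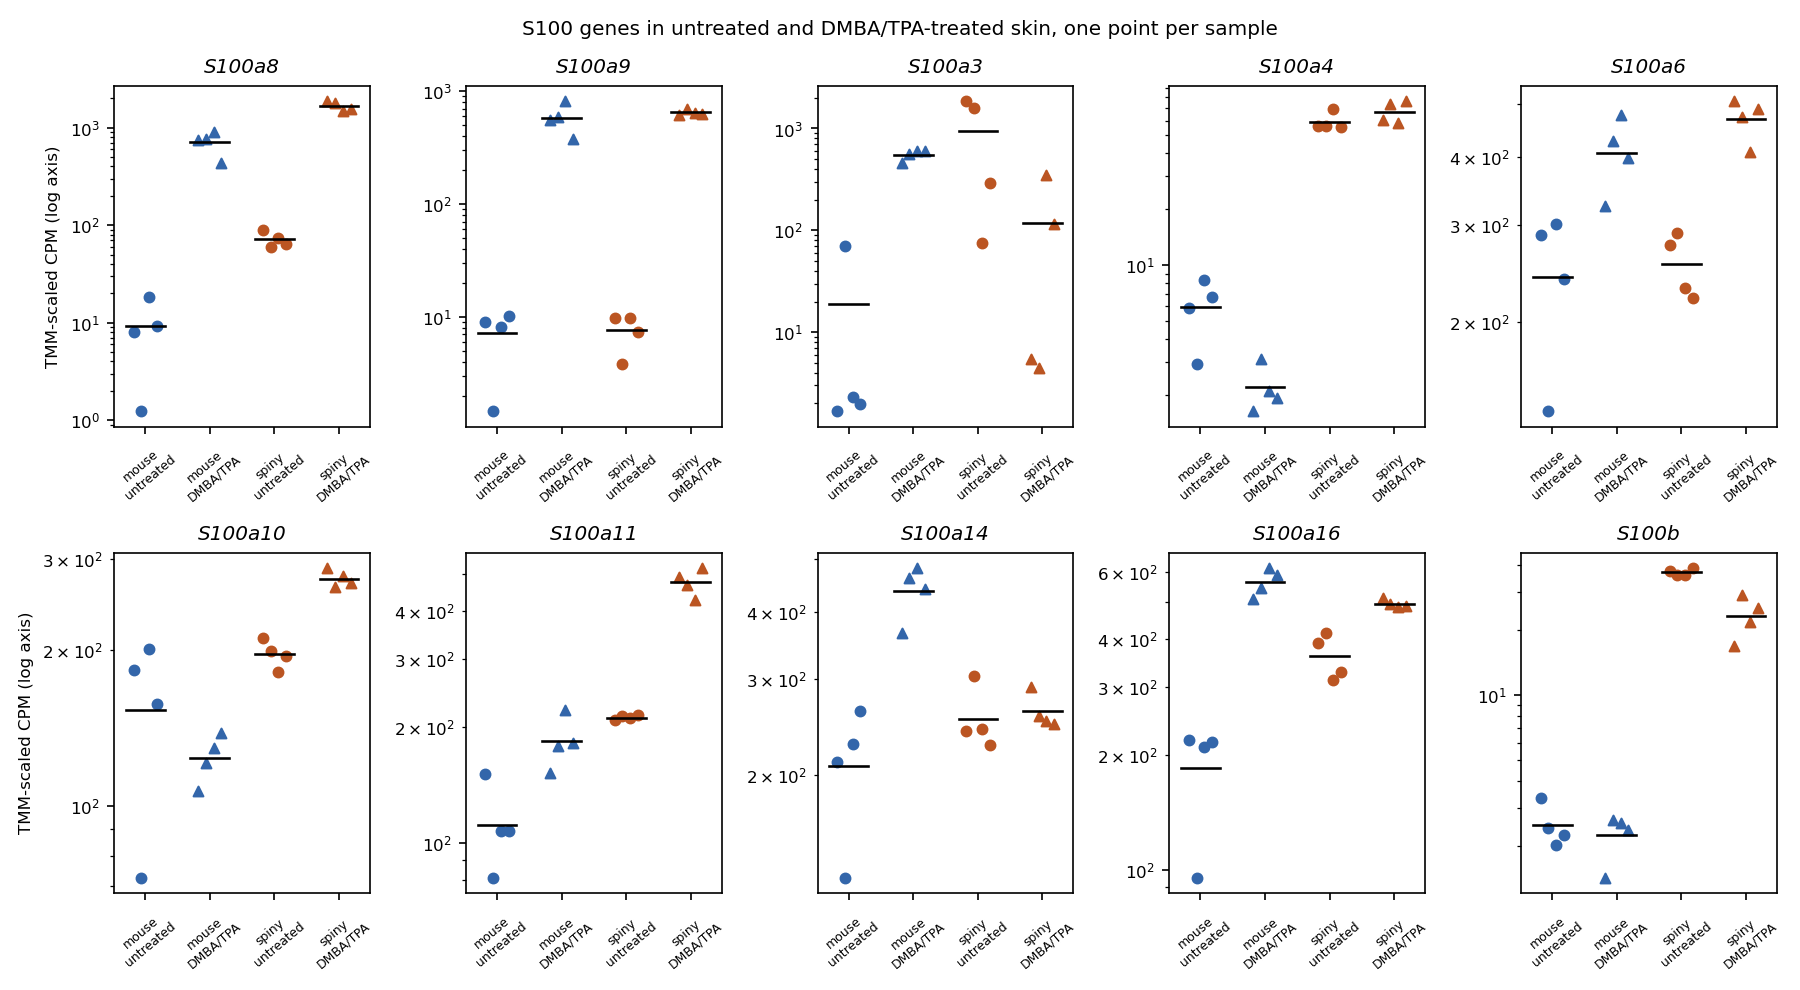
TMM-scaled CPM (log axis) of each S100 gene in every sample; circles are untreated and triangles DMBA/TPA-treated samples, blue is mouse and orange spiny mouse, and black lines are means of 4 samples. S100a8 and S100a9 rise in both species, whereas treated mouse samples of S100a3 (455 to 601 CPM) lie above untreated ones and the spiny mouse groups overlap.

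The calprotectin genes S100a8 and S100a9 rose in both species, and among the 10 members in spiny mouse their rises were the largest. In mouse they were followed by S100a3, which passed both without untreated replicate 2 or with the replicate block (8.21 and 7.12). S100a8 stood at 8.10, 1.23, 18.4 and 9.25 CPM in untreated mouse replicates 1 to 4 and at 740.2, 773, 911 and 438 CPM in the treated replicates. The groups were far apart, and the lowest of the 8 values was in untreated replicate 2. The rise was 77.3-fold, at log2 fold change 6.27 (SE 0.73, edgeR adjusted p 0.000125), and without untreated replicate 3 it was 6.93. In spiny mouse S100a8 was at 88.9, 59.7, 74.0 and 63.4 CPM in untreated skin and at 1857, 1804, 1495.5 and 1569 CPM in treated skin. Untreated spiny mouse skin thus listed S100a8 above every untreated mouse sample, on separately scaled tables. It rose 23.5-fold there, with log2 fold change 4.56 (SE 0.16, edgeR adjusted p 2.01e-06).

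S100a9, the calprotectin partner, was at 9.04, 1.45, 8.17 and 10.2 CPM in untreated and 552, 594, 812 and 377 CPM in treated mouse skin. Spiny mouse samples were at 9.66, 3.81, 9.70 and 7.36 CPM untreated and at 618, 703, 647 and 629 CPM treated. Its untreated level was at most 10.2 CPM in either species. The log2 fold change was 6.34 in mouse (SE 0.60, edgeR adjusted p 4.06e-05) and 6.41 in spiny mouse (SE 0.30, edgeR adjusted p 3.54e-06). The difference between the species was 0.07 (SE 0.57, edgeR adjusted p 0.935), so the size of the S100a9 rise was not shown to differ. For S100a8 the rise was smaller in spiny mouse by 1.72 on the log2 scale (SE 0.65, edgeR adjusted p 0.0418). That call was lost in 12 of the 16 fits that left out 1 sample, with adjusted p up to 0.0757, and with 2 of the other scalings. Without untreated mouse replicate 3 the difference was -2.37.

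The ratio of S100a8 to S100a9 per length, which needs no library scaling, was compared within each sample. In spiny mouse it was 12.4, 21.2, 10.3 and 11.6 in untreated and 4.06, 3.47, 3.12 and 3.37 in treated skin. The groups did not overlap, and S100a8 was the more abundant transcript per length in all 8 samples. The log2 ratio went from 3.74 ± 0.46 to 1.80 ± 0.16 (SD, n = 4), a difference of -1.93 with an exact two-sided permutation p of 0.0286, the smallest that 4 against 4 samples allow, and 0.0571 adjusted over the 4 ratio tests made. In mouse the ratio was 0.674, 0.638, 1.69 and 0.685 in untreated and 1.01, 0.979, 0.844 and 0.874 in treated skin, so that untreated replicate 3 alone lay above the treated samples. The log2 ratio was -0.25 ± 0.67 and -0.11 ± 0.13 (exact permutation p 0.771). Without untreated replicate 3 the difference was 0.47, with an exact permutation p of 0.0571, the smallest that 3 against 4 samples allow. No ratio test passed 0.05 after adjustment.

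**Figure D2:**
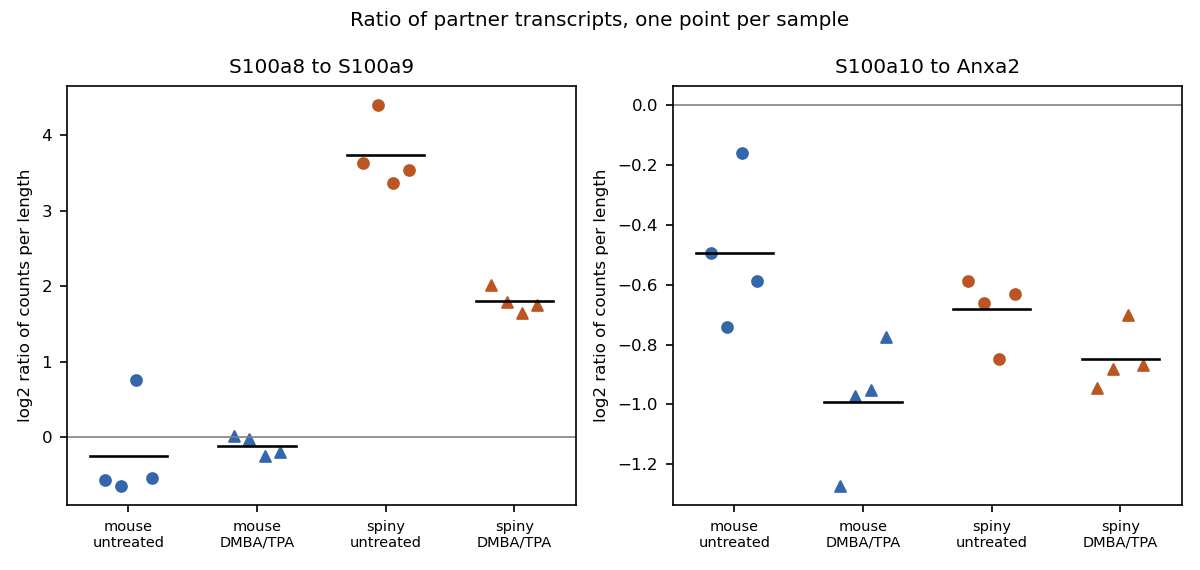
Log2 ratio of counts per length of S100a8 to S100a9 (left) and of S100a10 to Anxa2 (right) in each sample, by species and treatment, with black lines at means of 4 samples. The spiny mouse samples of S100a8 to S100a9 lie between 3.37 and 4.40 untreated and between 1.64 and 2.02 treated, and mouse samples lie between -0.65 and 0.76.

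The summed level of markers of neutrophils, the blood cells richest in calprotectin, was also higher in treated skin of both species. Within treated mouse skin, though, replicate 4 had the highest marker sum and the lowest S100a8 and S100a9. The 11 listed markers summed to between 7.24 and 12.5 CPM in untreated and between 20.5 and 32.2 CPM in treated mouse skin, and 3 of the 11 passed the low-count filter. Those 3, the receptor genes Csf3r and Cxcr2 and the collagenase gene Mmp8, were called higher, beside 25.9% of all genes. Their log2 fold changes were 0.80, 2.79 and 1.35 (edgeR adjusted p 0.0215, 0.00128 and 0.00581). The surface marker Ly6g and the granule genes Elane, Mpo, Ngp, Ltf and Camp did not pass that filter. Each averaged at most 0.313 CPM in untreated and in treated mouse skin. In spiny mouse, where Ly6g is not listed, the summed level of the others went from 37.9 to 58.5 CPM untreated to 337 to 394 CPM treated. Of the 8 markers tested there 6 were called higher and 1 (Camp) lower, beside 28.2% and 26.9% of all genes. Retnlg was listed at 0, but it shares 85.6% of its exon bases with Retnla, and fragments in shared exons are not assigned. Mpo, among the 6 called higher, shares 62.7% of its exon bases with Tspoap1. Stfa2l1, which shares 48.9% of its exon bases with Cstdc4, held 246 CPM ± 46.0 (SD, n = 4) of the treated sum. Keratins of thickened epidermis (Krt6a, Krt6b, Krt16 and Krt17) summed to 671 to 1739 CPM in untreated and 13389 to 18650 CPM in treated mouse skin. In spiny mouse, where Krt6b is not listed, the others summed to 1205 to 2156 CPM untreated and 6376 to 7842 CPM treated. The part of either cell type in the S100a8 and S100a9 rises was not tested.

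The genes whose pattern over the 16 samples was most like that of S100a8 were Klk13 and Klk6, kallikrein proteases, and Lce3a, a late cornified envelope gene, with root-mean-square differences of 0.52, 0.61 and 0.76 on the log2 scale after centring within species. S100a9 itself differed by 0.77. Klk6 went from 34.4 to 1049 CPM in mouse and from 64.0 to 1692 CPM in spiny mouse (means of 4 samples). With the mean absolute difference in place of the root mean square, 2 of these 3 genes remained nearest.

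S100a3, which encodes a cysteine-rich protein of the hair cuticle, rose in mouse, and in spiny mouse its treated and untreated levels overlapped. In untreated mouse skin it was at 1.67, 69.7, 2.31 and 1.96 CPM, and in treated mouse skin at 455, 565, 595 and 601 CPM. All treated mouse samples were high and 3 of 4 untreated ones at most 2.31 CPM, with replicate 2 between. The log2 fold change in mouse was 4.87 (SE 1.28, edgeR adjusted p 0.00892), and 8.21 without untreated replicate 2. In untreated spiny mouse skin S100a3 was at 1839, 1605, 75.8 and 291 CPM, and in treated spiny mouse skin at 5.46, 4.47, 349 and 116 CPM. The spiny mouse groups overlapped with samples spread widely in each, and the log2 fold change, -3.00 (SE 1.42, adjusted p 0.100 with edgeR), was not called. Without treated replicate 3 it was -4.50 (edgeR adjusted p 0.0382). The 2 responses differed by -7.88 (SE 2.10, edgeR adjusted p 0.00637). That difference was -11.2 without untreated mouse replicate 2, -9.38 without treated spiny mouse replicate 3 and -11.5 with the replicate block, and the block put the log2 fold change at 7.12 for mouse and -4.35 for spiny mouse.

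Markers of the growing hair follicle varied between samples along with S100a3, though within treated mouse skin the lowest S100a3 was in replicate 1 and the lowest marker sum in replicate 3. The 9 listed anagen markers, hair and root-sheath keratins with Padi3 and Hoxc13, summed to 12.0, 1911, 33.3 and 7.97 CPM in untreated and to 18989 to 20250.2 CPM in treated mouse skin. In spiny mouse, where Krt85 is not listed, the sums of the others were 9024, 10478, 959 and 2967 CPM untreated and 207, 163, 2642 and 1029 CPM treated. The order of the spiny mouse samples by these sums followed their order by S100a3 closely, with the highest 2 samples and the lowest 2 the same. In mouse 7 of 9 markers were called higher (25.9% of all genes), and in spiny mouse 3 of 8 were called lower (26.9% of all genes). The log2 fold change was called smaller in spiny mouse for 8 of 8 (24.7% of all genes). The part of the hair cycle in the S100a3 values was not tested.

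**Figure D3:**
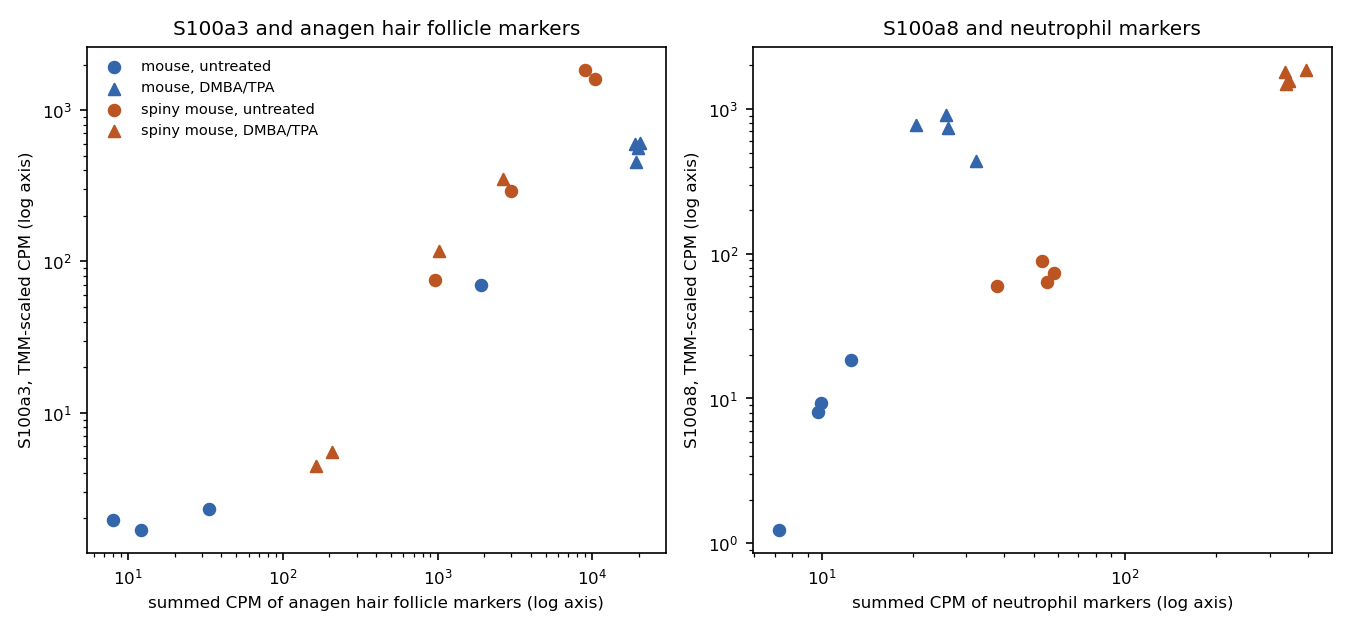
Left, S100a3 against the summed CPM of anagen hair follicle markers, and right, S100a8 against the summed CPM of neutrophil markers, 1 point per sample on log axes; symbols and colours give treatment and species. The mouse samples with the lowest anagen sums (7.97 to 33.3 CPM) are those at 1.67 to 2.31 CPM of S100a3. Treated mouse samples lie above untreated ones both in S100a8 (438 to 911 CPM) and in neutrophil sums (20.5 to 32.2 CPM).

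The pattern nearest to that of S100a3 belonged to Tchhl1, a trichohyalin-like gene of the S100 fused-type family (root-mean-square difference 0.39), followed by the hair keratin-associated genes Krtap24-1 (0.67) and Krtap12-1 (0.71), and the mean absolute difference gave the same 3. Tchhl1 rose from 11.8 to 408 CPM in mouse and had means of 210.0 and 25.5 CPM in untreated and treated spiny mouse skin. Among enzymes that modify S100A3 and hair proteins, Padi3, whose product turns arginine of S100A3 into citrulline, rose in mouse by 5.10 (SE 1.76, edgeR adjusted p 0.0301) and had a log2 fold change of -1.69 in spiny mouse (edgeR adjusted p 0.0633). Of this list of 9 genes, which also holds transglutaminases and oxidases, 5 of 8 tested rose in mouse (Padi1, Padi3, Padi4, Tgm1 and Tgm3). Another 2 fell there (Padi2 and Cybb), where 25.9% of all genes were called higher and 35.3% lower. Padi1 shares 32.0% of its exon bases with an antisense gene, Gm13032, and was counted without strand. In spiny mouse 1 of 8 rose (Tgm1) and 2 fell (Nox1 and Padi2), beside 28.2% and 26.9% of all genes. The exons of S100a3 overlapped those of S100a2 by 153 of its bases in mouse and 534 in spiny mouse, and S100a2, counted apart, was listed at 31 counts over all 8 mouse samples and at 0 in spiny mouse. In spiny mouse all of the S100a2 exon bases lay within S100a3 exons, and since fragments in shared exons are not assigned under the counting options, S100a2 could receive none there.

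**Figure D4:**
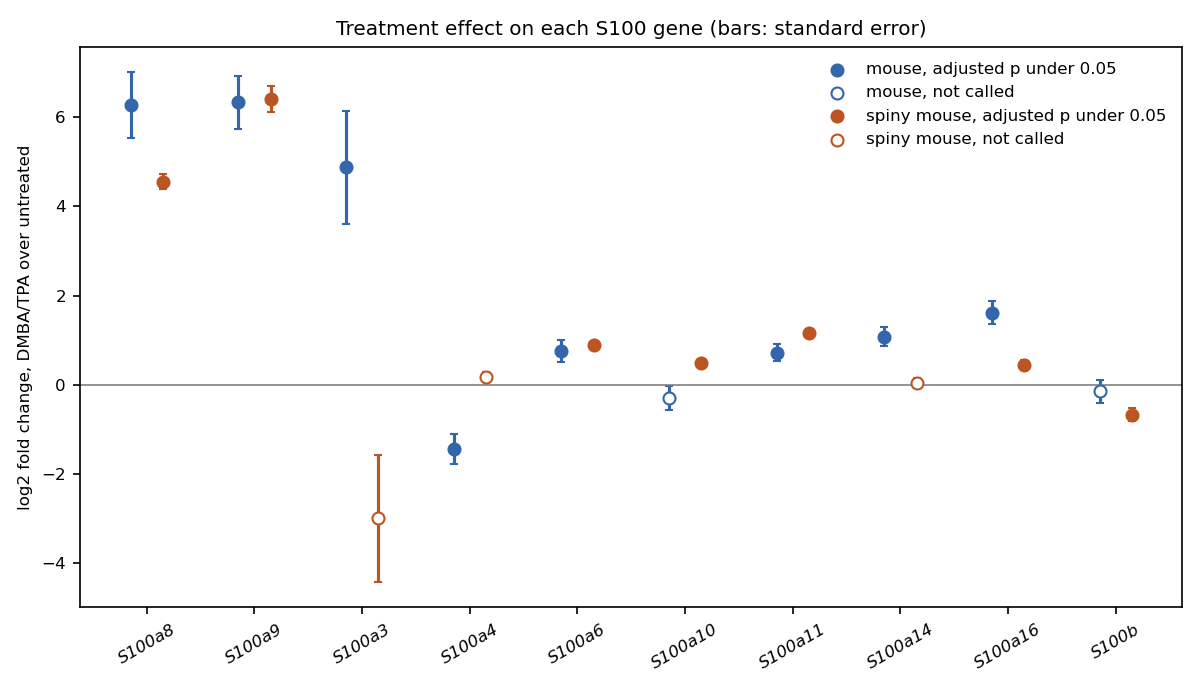
Log2 fold change (treated over untreated) of each S100 gene with its standard error, mouse in blue and spiny mouse in orange; filled points passed an edgeR adjusted p under 0.05. S100a9 has near equal changes (6.34 and 6.41), S100a4 was called in mouse (-1.44) and not in spiny mouse (0.18), and S100a10 was called in spiny mouse (0.48) and not in mouse (-0.31).

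S100a14 and S100a16, epithelial members of the cluster, had larger log2 fold changes in mouse than in spiny mouse. S100a16 stood at 219, 95.1, 209 and 215 CPM in untreated and 511, 545, 615 and 591 CPM in treated mouse skin, and at 392, 417, 314 and 329 CPM in untreated and 514, 495, 485 and 489 CPM in treated spiny mouse skin. Neither species had overlapping groups, and untreated mouse replicate 2 was the lowest of all 16 samples. The log2 fold change was 1.62 in mouse (SE 0.25, edgeR adjusted p 0.000637) and 0.45 in spiny mouse (SE 0.10, edgeR adjusted p 0.00445), and their difference was -1.17 (SE 0.28, edgeR adjusted p 0.00327). S100a14 went from 212, 129, 228 and 262 CPM to 365, 461, 481 and 440 CPM in mouse, by 1.07 (SE 0.21, edgeR adjusted p 0.00228). Spiny mouse skin had 241, 304, 243 and 227 CPM untreated and 291, 257, 251 and 248 CPM treated, and the log2 fold change, 0.05 (SE 0.10, adjusted p 0.724 with edgeR), was not called. The difference was -1.03 (SE 0.24, edgeR adjusted p 0.00284). Krt5, Krt14, Krt1, Krt10 and Krt15, keratins of the basal and suprabasal epidermis, summed to 6909 to 13447 CPM in untreated and 19144 to 27631 CPM in treated mouse skin, and to 13109 to 16747 CPM and 22512 to 28959 CPM in spiny mouse. In each species Krt1, Krt14 and Krt5 were called higher, Krt15 was called lower and Krt10 was not called. The log2 fold change of Krt15 was -2.05 in mouse and -1.64 in spiny mouse. Of all genes 25.9% were called higher and 35.3% lower in mouse, and 28.2% and 26.9% in spiny mouse. The part of these keratinocytes in the S100a14 and S100a16 values was not tested.

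S100a4, a protein of motile and mesenchymal cells that binds non-muscle myosin, differed in its response between the 2 species. In mouse it was at 5.90, 2.94, 8.35 and 6.70 CPM untreated and 1.63, 3.12, 2.11 and 1.93 CPM treated. The groups overlapped through untreated replicate 2 and treated replicate 2, and the log2 fold change was -1.44 (SE 0.33, edgeR adjusted p 0.00478). In spiny mouse S100a4 was at 56.3, 55.8, 69.3 and 55.1 CPM untreated and 60.6, 73.5, 58.2 and 76.0 CPM treated, with log2 fold change 0.18 (SE 0.11, edgeR adjusted p 0.191). The responses differed by 1.62 (SE 0.34, edgeR adjusted p 0.0011). The mouse gene shares 302 of its 584 exon bases (51.7%) with the predicted gene Gm42674, which is listed at 0 counts in every mouse sample, and under the counting options fragments in the shared exons are not assigned. Its mouse values, 31 to 228 fragments a sample, therefore rest on the remaining exons. Fibroblast markers, which hold collagens and Dcn, summed to 9662 to 16003 CPM in untreated and 7302 to 10986 CPM in treated mouse skin. Of these 6 markers 2 were called lower, beside 35.3% of all genes. In spiny mouse, where S100a4 was not called, the fibroblast markers went from 4687 to 7894 CPM to 2538 to 3603 CPM. There 3 of 6 were called lower and 1 higher, beside 26.9% and 28.2% of all genes. Their part in the S100a4 values was not tested.

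S100a6, S100a10 and S100a11, binders of annexins, moved in a narrower range. S100a6 (calcyclin), found at high level in dividing cells, was at 289, 137, 301 and 239 CPM untreated and 326, 427, 477 and 398 CPM treated in mouse, with log2 fold change 0.75 (SE 0.24, edgeR adjusted p 0.0230). Spiny mouse samples held 276, 290.3, 230.3 and 222 CPM untreated and 504, 473, 408 and 488 CPM treated, with log2 fold change 0.88 (SE 0.11, edgeR adjusted p 0.000204). Both pairs of groups were apart, and the difference of 0.13 (SE 0.28, edgeR adjusted p 0.734) was not called. The mouse call was lost without treated replicate 3 (adjusted p 0.0597) and with library size alone as the scale (adjusted p 0.0623).

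S100a11, which binds annexin A1 and takes part in keratinocyte growth control, was at 151, 81.1, 107 and 107 CPM untreated and 152, 178, 222 and 182 CPM treated in mouse, with log2 fold change 0.72 (SE 0.19, edgeR adjusted p 0.0101). The lowest treated and the highest untreated value were next to each other. In spiny mouse it rose from 208, 213, 211 and 214 CPM to 490.4, 468, 427 and 518 CPM, by 1.17 (SE 0.07, edgeR adjusted p 1.05e-05). The difference of 0.45 (SE 0.21, edgeR adjusted p 0.0986) was not called, though it was without untreated mouse replicate 2, at 0.49 (adjusted p 0.0259), and on 2 other scales. The S100a11 window shown is mouse sequence, and any part of its 2 TGAGTCA runs in these values was not tested.

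S100a10 (p11), which with annexin A2 forms a membrane-bound complex that recruits plasminogen, was at 183, 72.5, 201 and 157 CPM untreated and 107, 121, 129 and 138 CPM treated in mouse. The groups overlapped through untreated replicate 2, and the log2 fold change, -0.31 (SE 0.27, adjusted p 0.339 with edgeR), was not called. Without that sample it was -0.45 (edgeR adjusted p 0.00239). Spiny mouse levels were 211, 199, 181 and 194 CPM untreated and 288, 264, 278 and 269 CPM treated, and S100a10 rose by 0.48 (SE 0.07, edgeR adjusted p 0.000322) with groups apart. The difference between species was 0.79 (SE 0.30, edgeR adjusted p 0.0389), a call that was lost in 14 of 16 fits without 1 sample, where the adjusted p reached 0.103, and in 3 of 6 other settings (DESeq2 size factors, no low-count filter and the replicate block). The ratio of S100a10 to Anxa2 per length in treated mouse skin, 0.414, 0.510, 0.517 and 0.585, was below the untreated ratios of 0.711, 0.598, 0.894 and 0.666. The log2 ratio differed by -0.50, with an exact permutation p of 0.0286 and 0.0571 adjusted. In spiny mouse it differed by -0.17 (exact permutation p 0.0571, adjusted 0.0762).

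S100b, a protein of glia, Schwann cells, melanocytes and fat, was low in mouse at 3.34, 2.41, 2.01 and 2.23 CPM untreated and 1.42, 2.64, 2.55 and 2.38 CPM treated. These groups overlapped, and the log2 fold change was -0.15 (SE 0.26, edgeR adjusted p 0.640). In spiny mouse it was at 37.8, 36.1, 36.2 and 38.9 CPM untreated and 16.9, 29.1, 21.9 and 25.4 CPM treated. All treated samples were below all untreated ones, and it fell by 0.67 on the log2 scale (SE 0.14, edgeR adjusted p 0.00368). The difference was -0.53 (SE 0.27, edgeR adjusted p 0.125). Without untreated mouse replicate 1 it was -0.72 and without treated mouse replicate 1 -0.71, and it was called in each case. Spiny mouse adipocyte markers summed to 1958 to 2179 CPM untreated and 809 to 1190 CPM treated, with 4 of 6 called lower. Schwann cell markers went from 152 to 211 CPM to 125 to 168 CPM, with 3 of 6 called lower, and melanocyte markers were at 5.62 to 37.1 CPM and 8.49 to 12.8 CPM. In mouse, where S100b was not called, adipocyte markers went from 457 to 1338 CPM to 382 to 698 CPM, with 3 of 6 called lower. Schwann cell markers there went from 189 to 277 CPM to 75.4 to 82.7 CPM, with 5 of 6 called lower, and melanocyte markers from 11.6 to 105 CPM to 224 to 358 CPM, with 5 of 5 called higher. Of all genes, 26.9% were called lower in spiny mouse, and in mouse 35.3% were called lower and 25.9% higher. Which of these cells held the S100b transcripts was not tested. The nearest patterns over the 16 samples were those of Rbpms2, Pfn2 and Sucla2, at 0.22 to 0.23, and only 1 of the 3 stayed nearest with the mean absolute difference.

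Across species the difference of responses was called larger in spiny mouse for 2 members (S100a4 and S100a10), where 21.4% of 13656 tested genes were called larger, and smaller for 4 (S100a3, S100a8, S100a14 and S100a16), beside 24.7%. S100a6, S100a9, S100a11 and S100b were not called. The median difference of the 10 members was -0.23 and that of all genes -0.03.

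Levels per length, in CPM per kilobase of gene model, gave an order among the 10 genes. In untreated mouse skin S100a11 (218 ± 56.4, SD, n = 4) and S100a6 (177 ± 54.4) came first, followed by S100a10, S100a14 and S100a16, and these 5 overlapped in sequence. They were apart from S100a9, S100a8, S100a4, S100a3 and S100b, all at means of at most 13.8. The place of mouse S100a4 is uncertain and its level understated, since its length includes the exon bases shared with Gm42674. After treatment S100a9 (1118 ± 343) and S100a8 (1031 ± 288) led, overlapping with each other but not with the third, S100a11 at 359 ± 56.5. In untreated spiny mouse skin the first was S100a11 again (420.0 ± 5.45), ahead of S100a6 (348 ± 46.1) without overlap, and S100a9 was last at 14.4 ± 5.23. In treated spiny mouse skin S100a8 (4279 ± 448), S100a9 (1223 ± 71.2), S100a11 (944 ± 76.4) and S100a6 (640 ± 57.7) each stood apart from the next. Gene models differ in length between the species, S100a8 having 694 bases in mouse and 393 in spiny mouse. The order is therefore given within a species only, and there too it depends on the lengths of the gene models. That of S100a3, 2670 bases in mouse and 3554 in spiny mouse, includes exon bases shared with S100a2, and in mouse with Gm42674. The place of S100a3 is thus uncertain too.

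Of the other S100 genes listed, 4 were tested in mouse, where 2 rose and 1 fell, beside 25.9% and 35.3% of all genes. In spiny mouse 5 were tested, where 1 rose and 1 fell, beside 28.2% and 26.9% of all genes. S100a7a, a psoriasin relative of the epidermis, was at 0.33 to 5.09 CPM in untreated and 78.2 to 95.1 CPM in treated mouse skin. It rose by 5.68 (SE 0.73, edgeR adjusted p 0.000209), whereas in spiny mouse it was at 0.14 to 7.04 CPM in all 8 samples and was not called (log2 fold change -1.77, edgeR adjusted p 0.114). The difference was -7.45 (SE 1.15, edgeR adjusted p 0.000107). S100a1, known from muscle, rose by 0.59 in mouse (SE 0.20, edgeR adjusted p 0.0294) and fell by 1.43 in spiny mouse (SE 0.17, edgeR adjusted p 0.000158). Skeletal muscle markers were lower in treated skin of both species, 6 of 6 called in each, beside 35.3% of all genes in mouse and 26.9% in spiny mouse. S100a7l2 fell in mouse from a mean of 5.96 CPM to below the 3-count floor (edgeR adjusted p 0.000366). S100g, a vitamin D-dependent calcium binder, rose in spiny mouse from 0.162 to 1.08 CPM (edgeR adjusted p 0.000363).

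Annexins, partners of S100A10, S100A11 and S100A6, were called higher in spiny mouse for 4 of 8 (Anxa1, Anxa2, Anxa4 and Anxa6) and lower for 2 (Anxa5 and Anxa8), beside 28.2% and 26.9% of all genes. In mouse Anxa6 and Anxa8 were called lower, beside 35.3% of all genes, and the other 6 were not called. Anxa2 was at 791, 373, 692 and 726 CPM untreated and 794, 729, 768 and 729 CPM treated in mouse. In spiny mouse it was at 847, 841, 870.5 and 804 CPM untreated and 1480.5, 1299, 1208 and 1309 CPM treated, and it rose by 0.66 (SE 0.09, edgeR adjusted p 0.0003). The rise of Anxa4 was larger in spiny mouse than its change in mouse by 1.18 (SE 0.20, edgeR adjusted p 0.000211).

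Of 10 listed receptors and surface partners of S100 proteins, the response was called larger in spiny mouse for 4 (Cd33, Emb, Ly96 and Tlr4), beside 21.4% of all genes, and smaller for 1 (Alcam), beside 24.7%. The differences of Ager, Cd36, Bsg, Nptn and Il1rl1 were not called. Tlr4, a calprotectin receptor of innate immunity, fell in mouse from 34.0 to 20.2 CPM (log2 fold change -0.75, SE 0.23, edgeR adjusted p 0.0184) and rose in spiny mouse from 30.6 to 56.9 CPM (0.90, SE 0.07, edgeR adjusted p 2.4e-05). The responses differed by 1.65 (SE 0.25, edgeR adjusted p 0.000104). Its co-receptor Ly96 was called higher in spiny mouse only, and its difference of 1.20 was called too (SE 0.32, edgeR adjusted p 0.00645). Alcam, an adhesion molecule that binds S100 proteins, rose in mouse by 1.04 and fell in spiny mouse by 0.53, with a difference of -1.56 (SE 0.13, edgeR adjusted p 4.86e-07). Ager, the receptor for advanced glycation end products and a receptor of S100 proteins, had log2 fold changes of -0.69 (SE 0.47, edgeR adjusted p 0.224) and -0.11 (SE 0.22, edgeR adjusted p 0.691). Within mouse 1 of the 10 rose and 3 fell, beside 25.9% and 35.3% of all genes, and in spiny mouse 4 rose and 2 fell, beside 28.2% and 26.9%. Among the 4 that rose in spiny mouse, Cd33 shares 63.2% of its exon bases with Siglecl1. Markers of macrophages, which are known to make Tlr4, were called higher for 5 of 7 in spiny mouse, beside 28.2% of all genes. In mouse 2 of 7 were called lower, beside 35.3% of all genes. The part of macrophages in the Tlr4 change was not tested.

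The fused-type S100 genes, which join an S100 domain to long repeats and build the granular layer and the hair root sheath, were called higher in mouse for 5 of 7 (Flg, Rptn, Tchh, Tchhl1 and Crnn) and lower for 1 (Flg2), beside 25.9% and 35.3% of all genes. In spiny mouse 2 of 7 were called higher (Flg and Rptn) and 1 lower (Flg2), beside 28.2% and 26.9%. Flg, profilaggrin of the granular layer, rose by 2.80 in mouse (SE 0.20, edgeR adjusted p 1.23e-05) and by 2.29 in spiny mouse (SE 0.30, edgeR adjusted p 0.000233), and the difference was not called (-0.51, edgeR adjusted p 0.260). Crnn, Rptn, Tchh and Tchhl1 had smaller log2 fold changes in spiny mouse than in mouse, with differences from -2.94 for Rptn (edgeR adjusted p 0.000889) to -8.16 for Tchhl1 (edgeR adjusted p 0.00317).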

How the data were processed

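The genes and gene lists were chosen with earlier results of these data known. The authors deposited 1 table of raw fragment counts per gene for each species. Per the file headers, featureCounts 2.0.3 counted read pairs on GRCm39 with the Ensembl 108 annotation (mouse) or on AcoCah2 (spiny mouse), with no strand option, and fragments in several places or genes were not assigned. Trim Galore and HISAT2 are named in the submitters' processing notes. GENCODE M39 named 56236 of 56980 mouse identifiers. Treated columns carry the code of their library names. Untreated columns carry another code than the library names of their labels, and its meaning is not stated. They were matched to labels through their species letter and number, so their treatment rests on that match. In all, 0 columns were left out.

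The deposited counts passed filterByExpr and TMM scaling before the quasi-likelihood test in edgeR 4.0.16 (R 4.3.3), with Benjamini-Hochberg adjustment over all genes tested in a species, at 0.05. The species difference is the species by treatment interaction over 13656 shared symbols. The SE is the size of a log2 fold change divided by the square root of F. Ratios were tested by exact two-sided permutation. Replicates were compared over genes of at least 20 counts, and the chi-square per degree of freedom was 11.35 to 165.8 in 24 within-group pairs, so all were kept. The fits were also run on simulated data with few changed genes, as many raised as lowered, and a common dispersion. That is a simpler case than these data. Alternatives were other scalings, no filter, DESeq2 1.42.0, a replicate block and each sample left out. All 10 S100 genes are named, with listed partners and markers, and the 3 genes most like S100a8, S100a3 and S100b among 12071 averaging at least 1 on the log2 CPM scale in each species.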

Additional observations from a re-analysis of the deposited data

Results flagged for a closer look

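Among 48 groups of 4 values for the 10 S100 genes and the ratios, 4 had a sample far from the others by Dixon's ratio, where chance gives about 1 in 20 groups. In untreated mouse replicate 2, S100a3 was at 69.7 CPM, while S100a16 was low at 95.1 CPM. In untreated spiny mouse replicate 3, S100a4 was at 69.3 CPM. In untreated mouse replicate 3 the log2 ratio of S100a8 to S100a9 was 0.76.

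The response to DMBA/TPA differed between the species, by edgeR's interaction test, for 6 genes. The log2 fold change in spiny mouse minus that in mouse was -7.88 for S100a3, -1.72 for S100a8, -1.17 for S100a16, -1.03 for S100a14, 1.62 for S100a4 and 0.79 for S100a10. The values for S100a8 and S100a10 lost their call in 12 and 14 of the 16 fits without 1 sample. That for S100a3 was -11.2 without untreated mouse replicate 2 and -9.38 without treated spiny mouse replicate 3, and that for S100a8 was -2.37 without untreated mouse replicate 3.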

How the results depend on the processing

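Of 30 results for the 10 S100 genes (a fold change in each species and their difference), 19 kept their call and direction in every alternative, and no called value reversed. Member counts stayed within 1.5 times: 7 to 9 in mouse, 7 to 8 in spiny mouse and 4 to 7 for the difference. Leaving out 1 sample moved the log2 ratio difference of S100a8 to S100a9 in spiny mouse between -2.06 and -1.71, and that of S100a10 to Anxa2 in mouse between -0.58 and -0.39. The exact p was then 0.0571, the smallest that 3 against 4 allow, so an unadjusted p under 0.05 could not be reached. Sign changes among results that were not called (S100a6, S100a9, S100a14 and S100b) are not listed.

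The scale mattered. The median log2 fold change of all mouse genes shifted by -0.20 on the upper-quartile scale and -0.24 on library size, and the species difference by 0.16 and 0.22. Genes called higher made up 42.4% of mouse calls, and 30.5% on the upper-quartile scale, 28.6% on library size and 48.4% on DESeq2 size factors. For the difference they were 46.4%, and on these scales 61.2%, 66.2% and 36.9%, with 36.3% where no low-count filter was used. The difference of S100a11 was called at 0.61 and 0.66 on the upper-quartile and library-size scales, and that of S100b at -0.63 with the DESeq2 test.

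Replicate numbers recur in every group without a stated meaning. Same-numbered treated and untreated samples had mean correlations of 0.00943 in mouse and -0.355 in spiny mouse. Differently numbered ones had means of -0.00325 and 0.119. Centring each gene within its group ties these to the same-numbered means, so they are not a separate baseline. Each same-numbered spiny mouse correlation was negative, from -0.526 to -0.195, and what lies behind this was not tested. Same-numbered samples were thus not alike, and the numbers were not taken as pairs. With the replicate block the test called 8 mouse, 7 spiny mouse and 5 difference results of the members, where S100a10 was lost at 0.71 (edgeR adjusted p 0.0809). Genes called with the block were 11246, 7418 and 5723 in place of 12085, 8180 and 6290. Low counts limit the precision of mouse S100a4 and S100b, at 27 to 228 counts a sample. They also limit S100a8 and S100a9 in untreated mouse replicate 2, at 28 and 33. S100a3 had 41, 63 and 43 counts in untreated mouse replicates 1, 3 and 4.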
